A study of Homo sapiens with 16 samples.

Results

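RNA of 2 control groups of a liver cancer cell study was compared: cells that received the solvent DMSO, the control of a sorafenib experiment, and cells that carried an empty vector (Vec), the control of an experiment that overexpressed MT1G, a small metal-binding protein. Each group had 3 libraries, so 6 of the 16 samples of the series entered. They were chosen by their labels alone: the 3 control columns of each experiment's table of normalized read counts were joined by gene name and rescaled together, and 14000 of 59609 genes had a mean of at least 10 normalized reads over the 6 libraries and were tested. All 6 samples are labelled Huh7, an established human hepatocellular carcinoma line. Neither group received MT1G or the kinase inhibitor sorafenib, a drug for liver cancer. The DMSO dose and time, the vector and the way it was delivered, and whether the vector cells were selected or are a single clone are not given in the sources used here. Every DMSO library comes from 1 experiment and every vector library from the other, so the solvent, the vector and the experiment cannot be told apart. Nothing in the labels says that the 3 libraries of a group came from separate cultures, so the p-values below measure only the spread between these libraries, which may be technical. Replicates 1 to 3 are numbered as the control columns of each table are; no label ties a column to a numbered sample.

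Solvent and empty vector controls are meant to carry everything except the agent under study, and gene programs that follow culture conditions can still differ between them. Cells in dense or poorly stirred culture stabilise the HIF factors, which turn on genes of oxygen shortage such as CA9, a membrane carbonic anhydrase. Foreign nucleic acid in the cytosol can turn on interferon and its target genes, among them the IFIT and OAS families. Low membrane cholesterol releases SREBP2, which turns on the enzymes of sterol synthesis.

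The labelled cell type was checked first against liver genes. ALB, APOB, SERPINA1 and FOXA2, which define hepatocytes or their lineage, had 0 reads in each of the 6 libraries, and AFP, the fetal liver protein that marks many liver cancers, had reads in 1 library only. Of 42 secreted hepatocyte proteins 14 had no read and 6 passed the minimum. The nuclear receptor HNF4A was present at 332, 326 and 339 normalized reads in the DMSO libraries and at 349, 309 and 326 in the vector libraries. CPS1, which opens the urea cycle, stood between 15957 and 19928, and the keratin KRT8 between 28241 and 38492. The complement factor C3, with 7807 to 9218, was the most abundant of the secreted proteins. The levels of albumin, AFP and other defining liver products, at or near 0 in both groups, go against the label, since Huh7 is known to make albumin and AFP, while HNF4A, CPS1 and C3 were expressed. What the cells are was not tested, so the groups are called here by their labels only. None of the 13 leukocyte markers passed the minimum.

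The libraries held 18243722 to 21074785 reads in the DMSO group and 18116136 to 23324749 in the vector group. Mitochondrial genes took 4.75 to 5.09% of reads with DMSO and 3.90 to 4.6% with the vector, and 21330 to 22202 genes against 20244 to 20914 had a read. The mitochondrial share and the number of genes with a read each separated the groups without overlap, and the two-sided exact permutation test gave p = 0.1 for both, the smallest value that 3 libraries against 3 allow (adjusted p = 0.2 over 4 measures). On the first principal component, which held 45.7% of the variance, DMSO replicate 3 lay at 12.2, between the other DMSO libraries at 24.5 and 26.3 and the vector libraries at -14.1 to -27.4. The part of these library differences in the gene results was not tested.

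Many genes differed between the controls, most of them by little. A gene was called when its limma adjusted p (Benjamini-Hochberg over the 14000 genes) was under 0.05. By that rule 1951 genes were higher in the DMSO libraries, which is 13.9% of those tested, and 2053, or 14.7%, were higher in the vector libraries, together 28.6%. Differences of at least 1 on the log2 scale of normalized reads plus 1, a change to 2-fold or more, were far less even: 174 genes (1.24%) were that much higher with DMSO and 27 (0.193%) with the vector. In 5840 genes, 41.7% of those tested, the 3 libraries of a group all lay above the 3 of the other. Without DMSO replicate 3 the called genes numbered 2534 and 2944. When the deposited scales of both tables were used as they stand, the split moved to 2511 and 1142. Leaving out DMSO replicate 1 gave 1236 genes higher with the vector, leaving out vector replicate 2 gave 1140 and leaving out vector replicate 3 gave 1184, while without DMSO replicate 2 the counts were 1284 and 1326.

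**Figure D1:**
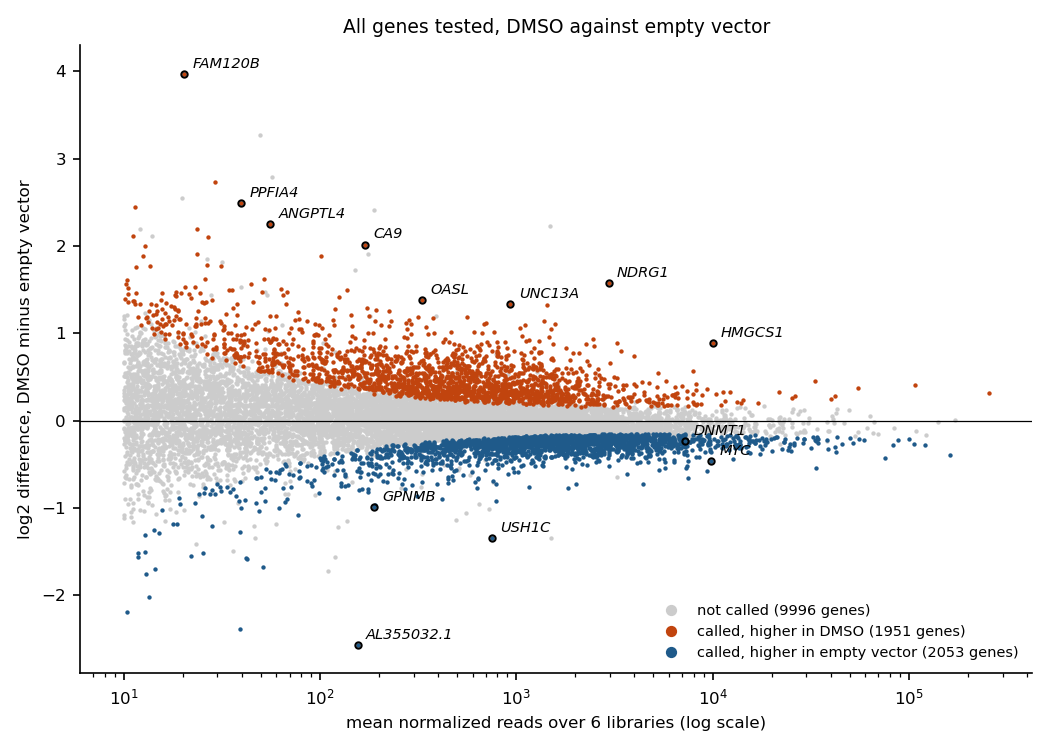
Log2 difference between DMSO and empty vector (y axis) against the mean of normalized reads over 6 libraries (x axis, log scale), with 1 point per gene tested. Red points mark the 1951 genes called higher in DMSO, blue points the 2053 called higher in the vector libraries, and circled genes are named in the text. Most of the called differences of at least 1 lie above the zero line (174 against 27 below), mainly among genes of low or medium level. AL355032.1 is a large difference below the line.

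For scale, each control can be set beside the treated cells of its own experiment, with which it shares a table. Sorafenib against DMSO gave 10484 called genes of 14915 tested (70.3%), of which 3199 (21.4%) differed by at least 1 on the log2 scale. MT1G overexpression against the vector gave 3179 of 13914 (22.8%), of which 358 (2.57%) differed by that much. These comparisons use the same control libraries as the comparison between the controls, so the counts are given side by side and were not tested against each other.

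**Figure D2:**
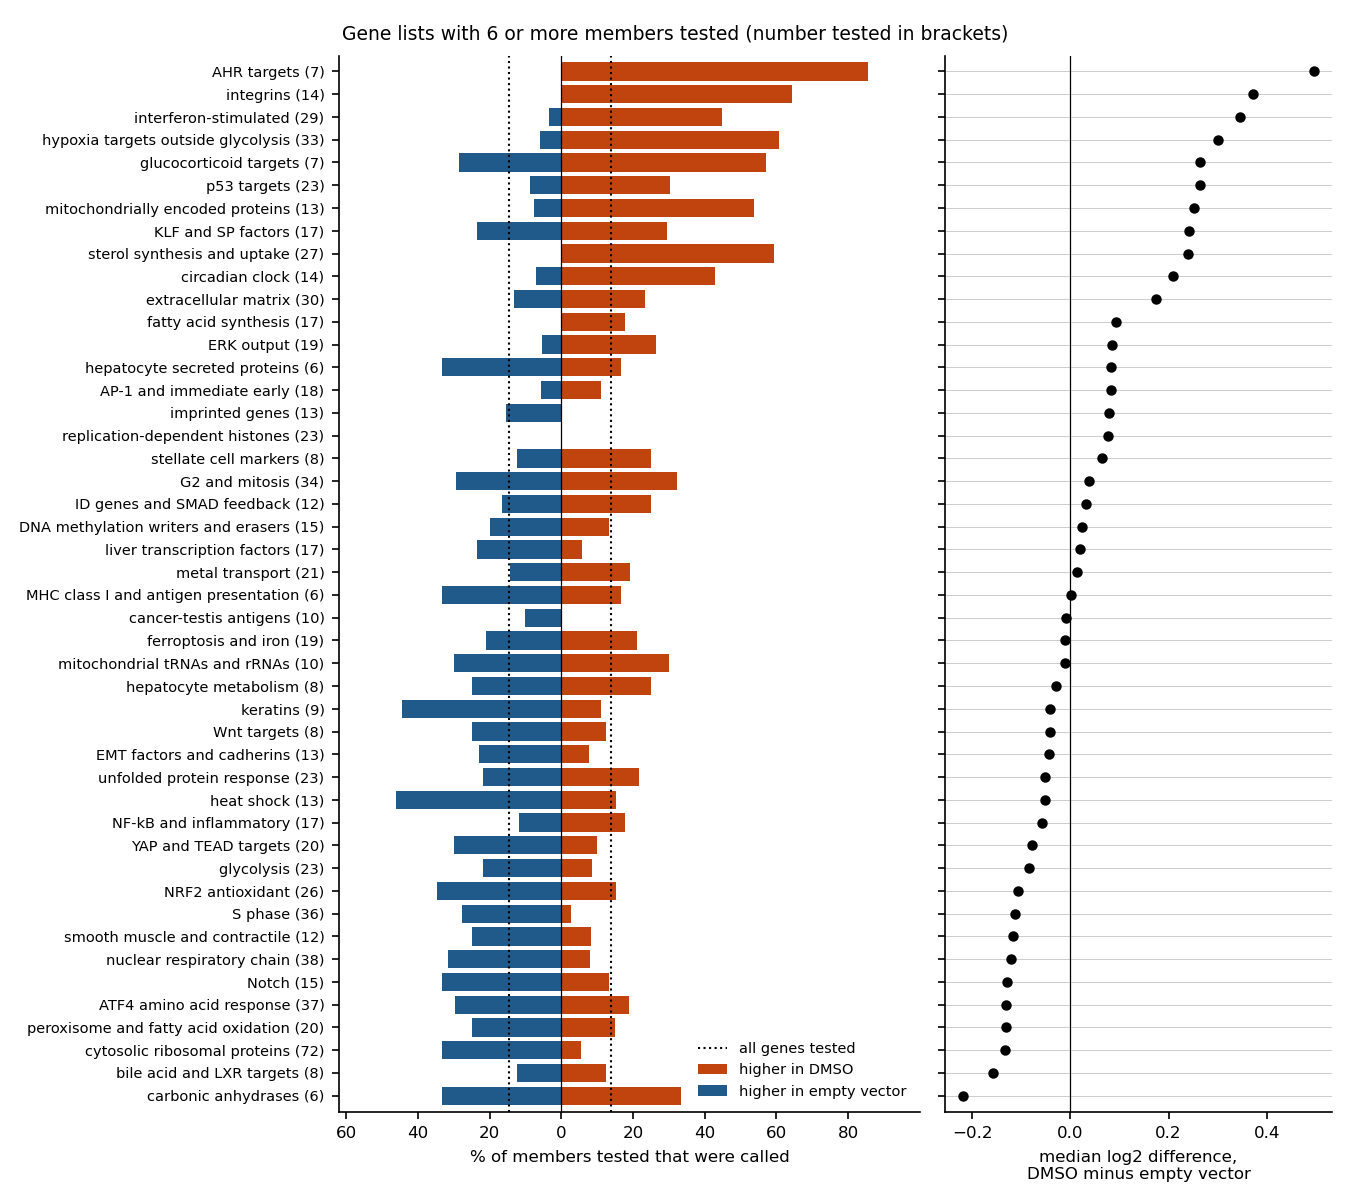
Left, the percentage of tested members of each gene list called higher in DMSO (red, to the right) or in the empty vector libraries (blue, to the left), with dotted lines at the 13.9% and 14.7% found over all genes tested. Right, the median log2 difference of each list shown, with AHR targets and integrins at the top, both above 0.3. At the bottom are carbonic anhydrases (-0.22) and bile acid and LXR targets (-0.16). Ribosomal, respiratory chain and S phase genes also have small negative medians.

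Genes that low oxygen turns on were higher in the DMSO cells. The differences were largest for CA9, ANGPTL4, PPFIA4 and NDRG1, at 3.01-fold to 6.29-fold between group means. Of 34 HIF target genes outside glycolysis, 33 were tested; 20 were higher with DMSO and 2 with the vector (1 without vector replicate 2 or 3), against 13.9% and 14.7% of all genes, and their median log2 difference was 0.30 against -0.01 over all genes tested. Without DMSO replicate 3 the count was 22, and with all 12 RNA libraries in a single fit it was 14.

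The promoters of CA9 and ANGPTL4, members with large differences, and of IFIT1 and DDX60, from the interferon genes described further on, are printed to show the letters through which the HIF and interferon-activated factors are known to bind. Each run is the 250 bases before the RefSeq start (GRCh38.p14), 5′ to 3′ on the strand of the gene, at chr9:35673678-35673927 (plus strand), chr19:8363905-8364154 (plus), chr10:89392373-89392622 (plus) and chr4:168318753-168319002 (minus). Capitals mark a match on either strand to ACGTG or GCGTG in the first pair, and to GAAA, any 2 bases and GAAA in the second pair.
CA9: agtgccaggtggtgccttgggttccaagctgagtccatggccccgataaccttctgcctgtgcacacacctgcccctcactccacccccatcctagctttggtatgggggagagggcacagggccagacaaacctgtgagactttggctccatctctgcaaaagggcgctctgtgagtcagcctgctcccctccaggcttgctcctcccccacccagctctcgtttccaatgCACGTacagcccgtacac
ANGPTL4: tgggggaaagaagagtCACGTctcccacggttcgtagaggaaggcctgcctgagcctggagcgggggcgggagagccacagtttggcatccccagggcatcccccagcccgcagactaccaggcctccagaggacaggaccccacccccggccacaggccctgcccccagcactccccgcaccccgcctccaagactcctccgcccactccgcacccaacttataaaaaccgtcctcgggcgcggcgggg
IFIT1: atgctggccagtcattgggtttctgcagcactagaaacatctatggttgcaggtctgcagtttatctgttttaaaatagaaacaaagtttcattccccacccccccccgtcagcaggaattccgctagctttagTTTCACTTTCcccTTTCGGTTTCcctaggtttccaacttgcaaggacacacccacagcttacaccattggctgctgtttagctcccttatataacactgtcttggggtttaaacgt
DDX60: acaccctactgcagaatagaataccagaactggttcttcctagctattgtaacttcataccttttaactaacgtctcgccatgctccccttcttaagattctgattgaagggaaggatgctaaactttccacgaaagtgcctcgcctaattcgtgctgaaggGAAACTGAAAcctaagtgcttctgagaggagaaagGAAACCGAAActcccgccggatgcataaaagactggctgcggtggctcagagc

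The hypoxia letters, searched on both strands, were in 23 of the 28 list promoters that the RefSeq table held, counting the 250 bases before and 50 after the start, and in 63.6% of the promoters of all tested genes that could be looked up. Among members called higher with DMSO 15 of 16 held them, and 8 of 12 among the others. Letters this short occur in most promoters, so a match is a description only.

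CA9 (chr9:35673928-35681159, RefSeq GRCh38.p14) stood at 240, 418 and 170 normalized reads in the DMSO libraries and at 63.4, 50.1 and 78.3 in the vector libraries. Every DMSO library was above every vector library, with replicate 2 the highest. The log2 difference was 2.02 (SE 0.36, limma adjusted p = 0.0112), and without vector replicate 1, 2 or 3 the adjusted p was 0.057, 0.0665 or 0.0511, so the call was lost each time. NDRG1, a stress-responsive gene of low oxygen and iron, had 4265, 5568 and 3486 against 1428, 1320 and 1672. Its groups were likewise separate, at 1.57 (SE 0.21, limma adjusted p = 0.00782). ANGPTL4, a secreted inhibitor of lipoprotein lipase, had 81.5, 128 and 69.7 with DMSO and 14.5, 17.3 and 23.7 with the vector, a log2 difference of 2.25 (SE 0.26, limma adjusted p = 9.93e-06). PPFIA4, a liprin of low level, had 70.5, 91.7 and 43.3 against 12.2, 10.9 and 9.49, a log2 difference of 2.49 (SE 0.29, limma adjusted p = 1.21e-05). In all 4 genes DMSO replicate 2 was the highest library and DMSO replicate 3 the lowest of its group.

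Of the enzymes that modify collagen under low oxygen, P4HA1 and PLOD2 were higher with DMSO by smaller amounts, 0.46 and 0.63 on the log2 scale. Their relatives P4HA2 (0.11) and PLOD1 (0.06) were not called (limma adjusted p = 0.306 and 0.521). Also higher with DMSO were BNIP3L, which marks mitochondria for removal (0.62, limma adjusted p = 2.13e-05), the clock-linked repressor BHLHE40 (0.50), the peptide hormone ADM (0.41) and the histone demethylase KDM3A (0.45). The oxygen sensor EGLN3 was called at 0.59, a call lost without DMSO replicate 1 or 2 or vector replicate 1 or 2 (limma adjusted p up to 0.128), and its relative EGLN1, at 0.17, was not (limma adjusted p = 0.119). The subunit HIF1A had 1638, 1706 and 1358 against 1165, 1117 and 1118 normalized reads, higher with DMSO by 0.46 (limma adjusted p = 0.000248). The other oxygen-regulated subunit, EPAS1, was lower with DMSO by a log2 difference of -0.27, and their partner ARNT, at -0.17, was not called (limma adjusted p = 0.0525).

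Other well-known HIF targets did not pass the test. VEGFA, the vessel growth factor, had 1593, 1839 and 1521 against 1692, 1584 and 1503, groups that overlap (log2 difference 0.05, limma adjusted p = 0.664). BNIP3 stood at 0.13, the glucose transporter SLC2A1 at 0.06 and the kinase PDK1 at 0.13. The 2 members higher with the vector were FAM162A (-0.25), whose call was lost without vector replicate 2 or 3 (limma adjusted p up to 0.0895), and the carbonic anhydrase CA12 (-0.23). Of 23 glycolysis genes 2 were higher with DMSO (8.7%, against 13.9% of all genes), the regulator PFKFB4 (1.02, limma adjusted p = 7.33e-06) and the lactate exporter SLC16A3 (0.27, limma adjusted p = 0.319 with all 12 libraries). With the vector 5 were higher (21.7%, against 14.7%), among them GAPDH (-0.27), TPI1 (-0.21), GPI (-0.23) and HK1 (-0.18). In the most abundant quintile of all genes tested, where the median level of this list lies, 34.4% were higher with the vector and 8.86% with DMSO. That count of 5 was 0 on the deposited scales, 10 without DMSO replicate 3, 0 without DMSO replicate 1 or vector replicate 2, and 1 without DMSO replicate 2 or vector replicate 3. LDHA, at 0.02, and PGK1, at -0.12, were not called.

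**Figure D3:**
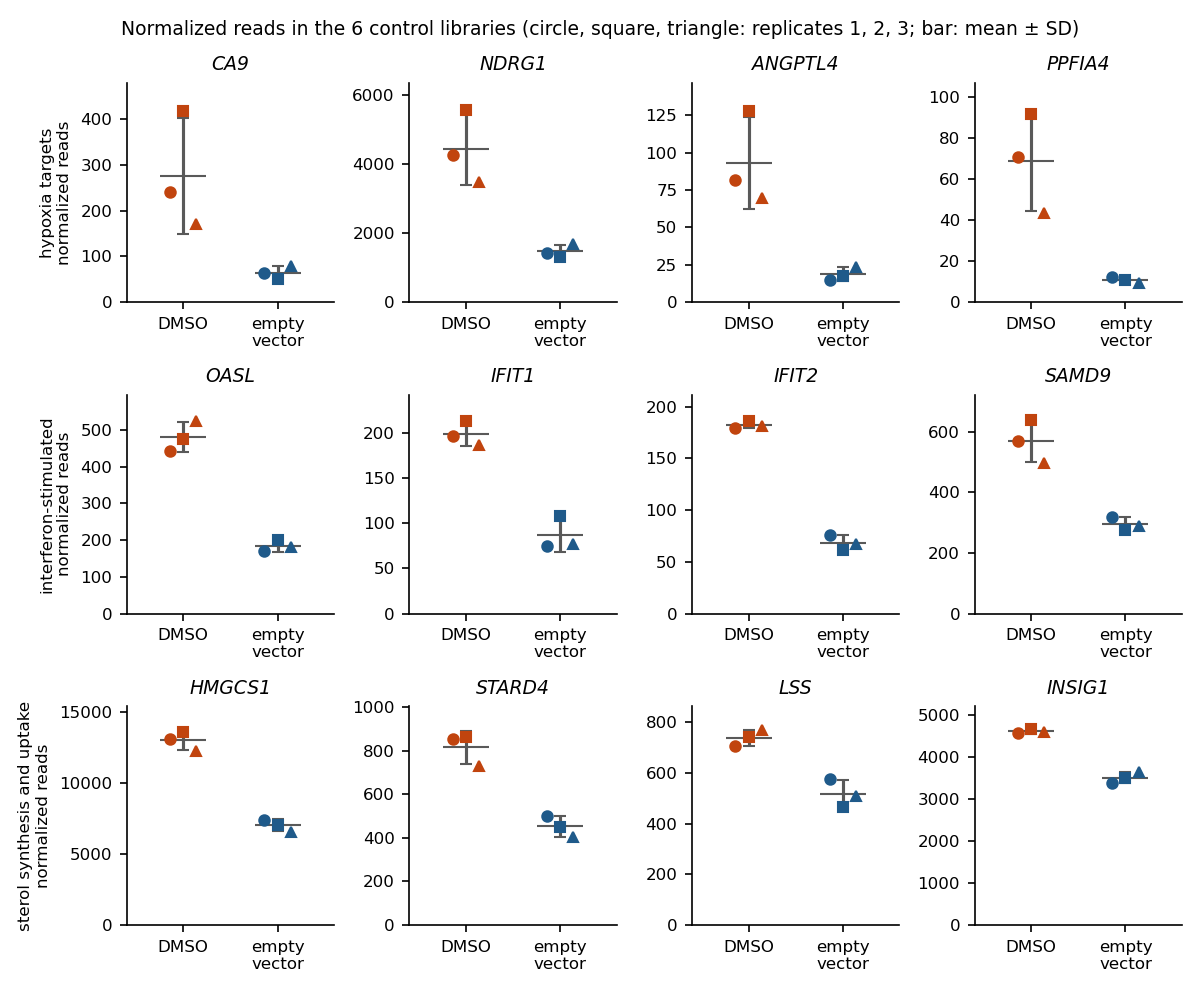
Normalized reads (y axes, each from 0) of 4 hypoxia targets, 4 interferon-stimulated genes and 4 sterol genes in the 3 DMSO and 3 empty vector libraries, with the mean ± SD of each group. In each of the 12 panels the 3 DMSO libraries lie above the 3 vector libraries.

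Interferon-stimulated genes were the next group that stood higher in the DMSO cells. Of 38 on the list 29 were tested; 13 were higher with DMSO (44.8%, against 13.9% of all genes) and 1 with the vector (3.45%, against 14.7%), and the median log2 difference was 0.35. Without DMSO replicate 3 the counts were 15 and 3, and the 1 higher with the vector became 0 without DMSO replicate 1 or 2 or vector replicate 2 or 3. The members called were the RNA-binding IFIT1, IFIT2 and IFIT3, OASL, the antiviral SAMD9 and SAMD9L, the RNA sensor DDX58 and others. Called members with values given here differed by 1.30-fold to 2.68-fold. The related IFIT5 was not called (log2 difference 0.19, limma adjusted p = 0.162).

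OASL (chr12:121017761-121039246), a relative of the OAS enzymes, had 442, 476 and 524 normalized reads against 169, 201 and 181. The groups were far apart relative to their spread, at 1.38 (SE 0.10, limma adjusted p = 5.21e-08). IFIT2 had 180, 186 and 182 against 75.7, 61.1 and 67.6, a log2 difference of 1.41 (SE 0.14, limma adjusted p = 2.4e-06). IFIT1, which binds viral RNA ends, had 197, 214 and 187 against 74.6, 108 and 77.1, a log2 difference of 1.21 (SE 0.15, limma adjusted p = 1.63e-05). In these 3 genes DMSO replicate 3 was not set apart from the other DMSO libraries. SAMD9L (1.15), IFI44 (0.99), SAMD9 (0.94), DDX60 (0.89), DDX58 (0.84), IFIT3 (0.81), HERC5 (0.63), HERC6 (0.51) and IFI6 (0.50) were called in the same direction, IFI44 except without DMSO replicate 2 (limma adjusted p = 0.0614). ISG15, a small ubiquitin-like modifier, differed less, with 958, 867 and 1115 against 711, 794 and 757 (0.37, limma adjusted p = 0.00301).

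Some members did not pass the test, and 1 went the other way. The antiviral GTPase MX1 was at -0.53 with overlapping groups of 14.2 to 35.6 normalized reads (limma adjusted p = 0.203). OAS2 stayed under the minimum, at 0 to 4.41 normalized reads. IFITM3, which blocks virus entry at membranes, was lower with DMSO at -0.25 (limma adjusted p = 0.014), a call lost without DMSO replicate 1 or 2 or vector replicate 2 or 3 (limma adjusted p up to 0.0867). The inducers IRF3 (limma adjusted p = 0.986) and IRF7, which had 1.19 to 28.3 normalized reads, were not called. The letters GAAA, any 2 bases and GAAA, searched on both strands and known from the interferon response element, were in 16 of the 23 list promoters in the RefSeq table, 69.6%, and in 2.61% of the promoters of all tested genes. They were in 8 of 11 members called higher with DMSO and in 8 of 12 of the other members. For the sterol genes described next, TCAC, any base and CCAC, known from the sterol response element and searched on both strands, were in 1 of 20 list promoters, and in 1.08% of those of all tested genes. They were in 0 of 12 members called higher with DMSO and in 1 of 8 others.

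Enzymes of cholesterol synthesis were higher in the DMSO cells, with no member called lower. Of 27 sterol genes tested 16 were higher with DMSO (59.3%, against 13.9% of all genes) and none with the vector (1 without DMSO replicate 3), and their median log2 difference was 0.24. HMGCS1 (chr5:43287470-43313412), an early enzyme of the pathway, had 13116, 13609 and 12286 normalized reads against 7412, 7059 and 6578, or 1.85-fold (log2 difference 0.89, SE 0.06, limma adjusted p = 2.12e-08). The groups were separate, with a spread that was small next to the difference.

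CYP51A1, which removes a methyl group from lanosterol, had 556, 527 and 430 against 354, 228 and 195 and was higher by 1.0 (limma adjusted p = 0.0278, and up to 0.114 when any DMSO replicate or vector replicate 2 was left out), and STARD4, a cytosolic sterol carrier, by 0.85 (limma adjusted p = 6.04e-06). INSIG1, which holds SREBP in the endoplasmic reticulum and is itself an SREBP target, was higher by 0.40, LSS by 0.52, SC5D by 0.44 and SQLE by 0.21. SREBF2, the gene of SREBP2, stood at -0.07 and FDPS at -0.06, neither of them called. In fatty acid synthesis 3 of 17 genes were higher with DMSO (17.6%, against 13.9% of all genes), namely ELOVL6 (0.47), ACSS2 (0.42) and LPIN1 (0.36). ACACA, with means of 546 against 233 normalized reads, had the largest log2 difference of this list, 1.20, and did not pass (limma adjusted p = 0.132). FASN, at 0.12, did not pass either (limma adjusted p = 0.159).

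Of the 4 genes of the axis in the title of the study 2 were called, CA9 and DNMT1, and MT1G could not be tested. CA9 is described above, and its call was lost when any vector library was left out. DNMT1, the maintenance DNA methyltransferase, had 6855, 6536 and 6529 normalized reads with DMSO and 7726, 7827 and 7940 with the vector, a log2 difference of -0.24 (SE 0.06, limma adjusted p = 0.00314). All vector libraries were above all DMSO libraries. KLF4, a zinc finger transcription factor, had 81.5, 82.3 and 72.9 against 62.3, 53.8 and 61.7. Its groups did not overlap, yet the difference of 0.41 (SE 0.17) did not pass the test (limma adjusted p = 0.0826), except when all 12 libraries were fitted together (limma adjusted p = 0.0136). MT1G had 0 reads in each of the 6 libraries.

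Other metallothioneins were at like levels: 1 of 4 tested was called, MT2A, with 5127, 5658 and 6421 against 4370, 4647 and 5075 normalized reads (0.28, limma adjusted p = 0.0102; 0.082 with all 12 libraries). MT1E (-0.17), MT1X (0.27) and MT1F (0.20) did not pass. Among the other writers and erasers of DNA methylation, TET2, which oxidises methylcytosine, was higher with DMSO by 0.73 (limma adjusted p = 0.000263) and UHRF2 by 0.39. In all, 2 of 15 members were higher with DMSO and 3 with the vector, against 13.9% and 14.7% of all genes.

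Against its own control, CA9 had a log2 difference of -5.84 with sorafenib and of -1.73 with MT1G (limma adjusted p = 0.000294 and 0.00027). On a scale common to all 12 libraries its mean was 274 ± 126 (SD, n = 3) with DMSO, 4.73 ± 4.55 with sorafenib, 63.7 ± 14 with the vector and 19.3 ± 7.53 with MT1G. KLF4 had log2 differences of 3.00 and 2.86 against its own controls. OASL, higher in the DMSO control, had a log2 difference of -1.11 with sorafenib and of 6.16 with MT1G. HMGCS1 had a log2 difference of -1.12 with sorafenib and did not pass the test with MT1G (limma adjusted p = 0.975). The integrin ITGA1 stood at -1.08 and 1.62, and NDRG1 at -1.15 and 0.03. Each of these values uses the control libraries compared here, and no relation between them was tested.

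**Figure D4:**
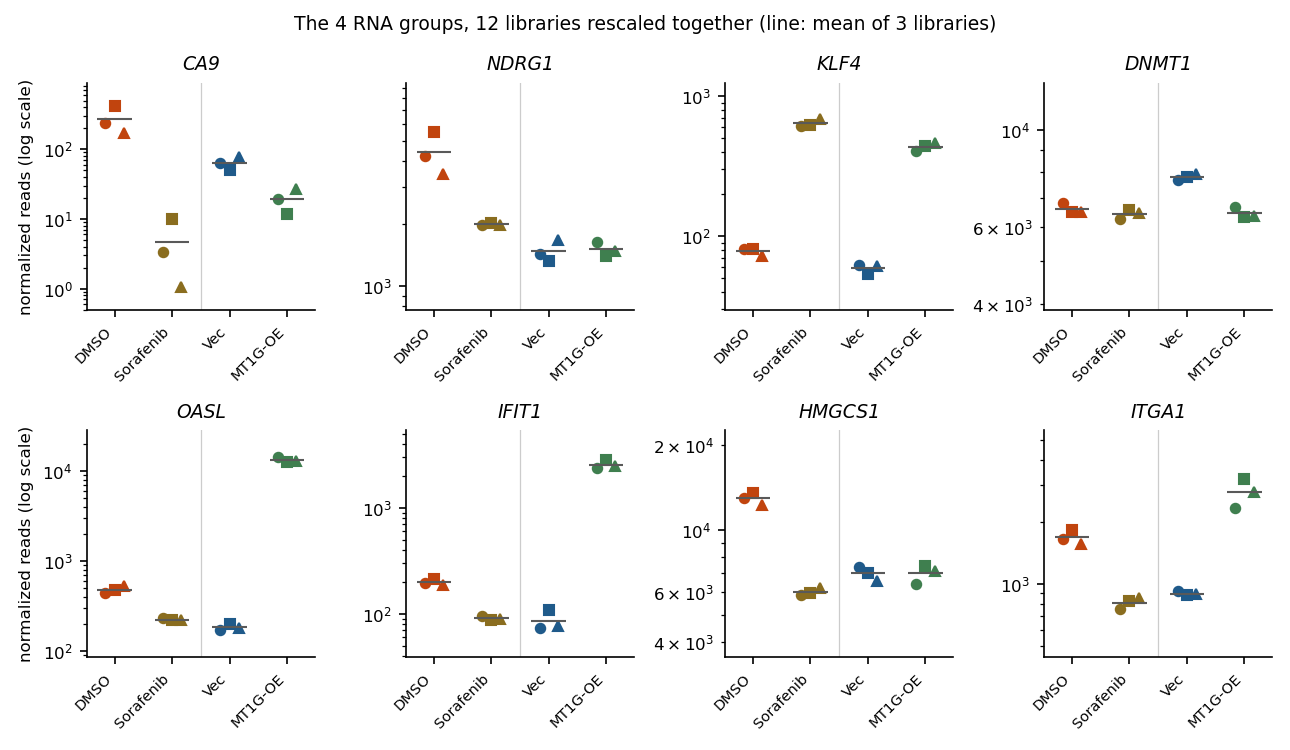
Normalized reads (y axes, log scale, 12 libraries rescaled together) of 8 genes in the DMSO, sorafenib, empty vector and MT1G groups, 3 libraries each, with lines at the means; a thin vertical line separates the 2 experiments. CA9, NDRG1, OASL, IFIT1, HMGCS1 and ITGA1 start higher in the DMSO control than in the vector control, and DNMT1 starts lower.

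The genes with the largest called differences among those with a mean of at least 100 and groups that do not overlap were of varied kinds. Higher with DMSO were, beside CA9, NDRG1, IFIT2 and OASL, the long noncoding RNAs LUCAT1 (1.88) and MALAT1 (1.33), ZDBF2 (1.5), UNC13A (1.34), CRYBG3 (1.28) and CREBRF (1.28). UNC13A, a protein of synaptic vesicle priming, had 1368, 1333 and 1312 normalized reads against 483, 534 and 573, a log2 difference with SE 0.08 (limma adjusted p = 1.02e-09). LUCAT1 had 142, 206 and 134 against 39, 40.1 and 47.4. MALAT1, a nuclear RNA, had 2118, 2444 and 1611 against 855, 747 and 829, and DMSO replicate 3 was again the lowest of its group.

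Higher with the vector were AL355032.1 (-2.57), USH1C (-1.35), GPNMB (-0.99), RFLNB (-0.96), AL137800.1 (-0.92), UPK3B (-0.89), ANXA10 (-0.89), TESC (-0.86), the matrix proteoglycan DCN (-0.82) and TGM1 (-0.80). USH1C, a scaffold of hair cells and the brush border, had 418, 457 and 396 against 1051, 1083 and 1102 normalized reads (SE 0.08, limma adjusted p = 1.02e-09). AL355032.1, known only by its clone name, had 41.9, 45.4 and 41.2 against 178, 289 and 337. GPNMB, a lysosomal membrane glycoprotein, had 112, 118 and 146 against 228, 287 and 234. Chosen after its values were seen, FAM120B had 52.9, 45.4 and 19 against 1.11, 1.82 and 1.19 normalized reads, so it was near 0 in the vector cells, and PRXL2B had 55.1, 71.9 and 26.4 against 5.57, 11.8 and 3.56.

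Among adhesion receptors many subunits were higher with DMSO. Of 14 integrin subunits 9 were higher with DMSO (64.3%, against 13.9% of all genes) and none with the vector (against 14.7%), with a median log2 difference of 0.37. ITGA1, a collagen receptor subunit, had 1672, 1847 and 1572 normalized reads against 923, 889 and 891 (0.91, SE 0.07, limma adjusted p = 6.86e-08). ITGAV (0.70), ITGA2 (0.67), ITGB5 (0.52), ITGB4 (0.41) and the common beta subunit ITGB1 (0.33) were called as well, and ITGA3 (0.04) and ITGA5 (0.06) were not. Of 30 matrix genes 7 were higher with DMSO (23.3%, against 13.9% of all genes), among them SPOCK1 (1.01) and FN1 (0.35), and 4 with the vector (13.3%, against 14.7%), among them DCN and EFEMP1 (-0.44). The actin-binding TAGLN, with 375, 363 and 360 against 213, 191 and 168, was higher with DMSO by 0.94. Markers of stellate cells, which also express DCN and LUM, were called higher with DMSO in 2 of 8 cases (25%) and with the vector in 1 (12.5%). Over all genes the shares were 13.9% and 14.7%. The summed level of these markers was 2707 to 2924 with DMSO and 2450 to 2508 with the vector. COL1A2, PDGFRA and LRAT, which define stellate cells or fibroblasts, had 0 reads in all 6 libraries, 3 of 14 on the list.

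Factors of epithelial and mesenchymal state were mixed. ZEB1, a repressor of epithelial genes, was higher with DMSO by 0.75 (limma adjusted p = 0.00263), and SNAI1, another such repressor, was higher with the vector at -0.70 (limma adjusted p = 0.00275). CDH1, the epithelial cadherin, was low, at 6.61, 9.45 and 14.8 against 23.4, 23.7 and 16.6 normalized reads (-1.03, limma adjusted p = 0.0451), and the call was lost when any library except DMSO replicate 3 was left out (limma adjusted p up to 0.179). VIM did not differ beyond its spread (0.04, limma adjusted p = 0.68).

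Genes of the aryl hydrocarbon receptor were called in 6 of 7 cases, all higher with DMSO (85.7%, against 13.9% of all genes), at a median log2 difference of 0.50. CYP1A1, the enzyme most used to read this receptor, had 26.4, 30.3 and 44.4 against 6.68, 21.9 and 8.3 normalized reads (1.52, SE 0.38, limma adjusted p = 0.00584). CYP1B1 stood at 0.50, the repressor AHRR at 0.55, ALDH3A1 at 0.64 and the receptor AHR at 0.34. NQO1, at 0.01, was not called. The count of 6 was 2 without DMSO replicate 1 or vector replicate 3 and 1 without DMSO replicate 2. With single libraries left out the limma adjusted p reached 0.114 for AHR, 0.0985 for CYP1B1, 0.118 for AHRR and 0.132 for ALDH3A1.

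Growth and stress genes went both ways, and their counts stand against 13.9% of all genes called higher with DMSO and 14.7% with the vector. The median levels of the NRF2, heat shock and ATF4 lists lie in the most abundant quintile. There 8.86% of genes were higher with DMSO and 34.4% with the vector. In these lists, in that order, 34.6%, 46.2% and 29.7% were higher with the vector, and 15.4%, 15.4% and 18.9% with DMSO. Of 19 genes that read ERK signalling 5 were higher with DMSO, among them ETV1 (0.85) and ETV5 (1.09, limma adjusted p = 0.0517 without DMSO replicate 1), and the count was 3 when DMSO replicate 1, DMSO replicate 2 or vector replicate 3 was left out. MYC was higher with the vector, with 8327, 8177 and 8220 against 10723, 11582 and 11855 normalized reads (-0.47, SE 0.06, limma adjusted p = 1.73e-05). Of 23 p53 targets 7 were higher with DMSO, including the cell cycle inhibitor CDKN1A (385, 445 and 460 against 272, 276 and 282, log2 difference 0.63) and RRM2B (0.78), and 2 with the vector, BTG2 (-0.52) and AEN (-0.23, limma adjusted p up to 0.0858 when DMSO replicate 1 or 2 or vector replicate 2 or 3 was left out). Of 26 NRF2 antioxidant genes 4 were higher with DMSO, led by the cystine transporter SLC7A11 (0.77, limma adjusted p = 0.00131), and 9 with the vector, among them the ferritin chain FTL (-0.42) and AKR1C1 (-0.56). Of 13 heat shock genes 6 were higher with the vector, among them DNAJB1 (-0.48) and HSPA8 (-0.27, limma adjusted p = 0.0666 without vector replicate 2), and 2 with DMSO. Of 37 ATF4 targets and amino acid enzymes 7 were higher with DMSO, led by PHGDH (0.52), and 11 with the vector, led by the tRNA synthetase GARS1 (-0.43); this count of 11 was 6 without DMSO replicate 1 or vector replicate 3 and 7 without DMSO replicate 2, without vector replicate 2 or on the deposited scales. Of 14 clock genes 6 were higher with DMSO, among them NR1D2 (0.66), TEF (0.68) and CLOCK (0.53), and 1 with the vector, NPAS2 (-0.25, limma adjusted p up to 0.165 when DMSO replicate 1 or 2 or vector replicate 3 was left out).

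Abundant genes of the ribosome and of the nuclear-encoded respiratory chain were called higher with the vector at shares near that of other abundant genes. Of 72 cytosolic ribosomal proteins 24 were higher with the vector (33.3%) and 4 with DMSO, with a median log2 difference of -0.13. In the most abundant quintile of all genes tested 34.4% were higher with the vector, at a median of -0.11, against 14.7% over all genes. RPL15 had 35513, 35188 and 41564 normalized reads with DMSO and 44815, 48784 and 50610 with the vector (-0.36, limma adjusted p = 0.00101). The count of 24 was 12 on the deposited scales, 46 without DMSO replicate 3, 11 without vector replicate 2, 12 without DMSO replicate 1 or 2 and 13 without vector replicate 3, and the count of 4 was 2 without vector replicate 2 and 0 with all 12 libraries. Ribosomal protein genes have many near-identical copies, and how reads with several matches were counted is not given, so their values in either direction are uncertain. RPL26, called higher with DMSO at 1.01, lost its call without DMSO replicate 1, 2 or 3 or vector replicate 2 (limma adjusted p up to 0.134). Of 38 nuclear genes of the respiratory chain 12 were higher with the vector (31.6%), led by UQCRFS1 (-0.42) and SDHB (-0.43), and 3 with DMSO (1 without DMSO replicate 1 or 3). That count of 12 was 6 on the deposited scales, 20 without DMSO replicate 3, 5 without DMSO replicate 1 or 2 or vector replicate 2, and 4 without vector replicate 3.

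The proteins encoded in mitochondrial DNA mostly went the other way, at a median log2 difference of 0.25. Of 13, 7 were higher with DMSO (53.8%, against 13.9% of all genes), a count of 5 without DMSO replicate 3. With the vector 1 was higher (7.69%, against 14.7%), or 3 without vector replicate 1 and 2 without DMSO replicate 3. MT-ND3 (-0.27), MT-CO2 (-0.17) and MT-CO3 (-0.12) leaned to the vector and were not called. MT-ND4, a subunit of complex I, had 129399, 120887 and 116698 normalized reads against 84626, 91133 and 101976 (0.40, limma adjusted p = 0.000532). MT-ATP6 stood at 0.38 and MT-ATP8, whose reading frame overlaps it, at -0.57 (limma adjusted p = 0.0507 without DMSO replicate 3), so reads of this pair may not be told apart. These transcripts are part of the mitochondrial share of reads given above, so the 2 measures are not independent. In bulk RNA, fewer cells of a kind and less RNA per cell cannot be told apart.

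Cell cycle genes leaned both ways, beside 13.9% of all genes called higher with DMSO and 14.7% with the vector. In the most abundant quintile, where the median levels of both lists lie, 8.86% were higher with DMSO and 34.4% with the vector. Of 36 S phase genes 10 were higher with the vector (27.8%), among them MCM4 (-0.32) and RFC2 (-0.40). With DMSO 1 was higher (2.78%), CLSPN (0.27, with a limma adjusted p of up to 0.138 when DMSO replicate 1 or 2 or vector replicate 1 or 3 was left out). The count of 10 was 17 without DMSO replicate 3, 5 without vector replicate 2, and 6 without vector replicate 3 or on the deposited scales. Of 34 G2 and mitosis genes 11 were higher with DMSO (32.4%) and 10 with the vector (29.4%). ASPM, a spindle pole protein, had 2044, 2420 and 1656 normalized reads against 1057, 983 and 899 (1.04, limma adjusted p = 0.000846), and TOP2A (0.74) and CENPE (0.85) went the same way. PLK1, a mitotic kinase, had 4378, 4321 and 4928 against 5370, 5781 and 6009 (-0.33, limma adjusted p = 0.000755), as did TPX2 at -0.27. The count of 10 was 6 without vector replicate 2. None of 23 replication-dependent histone genes was called.

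Long genes tended to be higher in the DMSO libraries and abundant genes in the vector libraries. When 11789 protein-coding genes were ranked by their span on the genome (RefSeq GRCh38.p14), 7.68% of the shortest quintile and 24.9% of the longest were called higher with DMSO, while 20.5% and 9.16% were called higher with the vector. The median log2 difference went from -0.07 to 0.10. Among protein-coding genes with a mean between 100 and 1000 normalized reads the shares higher with DMSO were 9.21% and 27.5%. By level, 34.4% of the most abundant quintile of all genes tested was higher with the vector and 8.86% with DMSO. Spearman's rho across genes was 0.22 with span and -0.27 with level. These are descriptions over genes of the same 6 libraries, which are not independent replicates.

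Examples of long genes, picked after their values were seen, were DST, RICTOR, GOLGB1, ATRX, ATM and BRCA2. DST, a giant linker of the cytoskeleton, had 2358, 2398 and 1715 normalized reads against 1113, 940 and 933 (1.1, limma adjusted p = 0.00129). RICTOR, a subunit of the kinase complex mTORC2, had 1959, 2127 and 1664 against 977, 823 and 799 (1.14), and ATM, a DNA damage kinase, had 877, 1023 and 769 against 475, 425 and 426 (1.0). In each of them DMSO replicate 3 was the lowest of its group and still above the vector libraries. Genes named ZNF, a large family of zinc finger factors, were called higher with DMSO in 102 of 389 cases and with the vector in 31. Their shares, 26.2% and 7.97%, stand beside 13.9% and 14.7% of all genes tested. Of the 4 most abundant genes, MT-CO1 was higher with DMSO (0.32, limma adjusted p = 0.0551 without DMSO replicate 1), ACTB with the vector (-0.40), and EEF1A1 (0.01) and FLNA (-0.02) were not called.

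**Figure D5:**
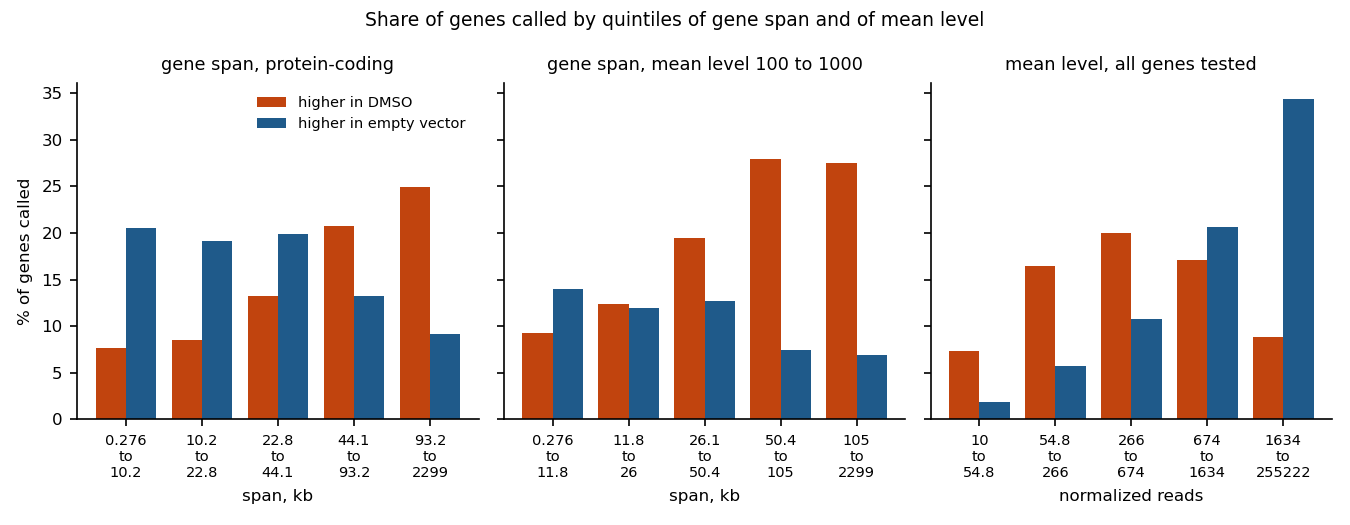
Percentage of genes called higher in DMSO (red) or in the empty vector libraries (blue), y axis, by quintiles of gene span in kb for protein-coding genes, by quintiles of span within a mean level of 100 to 1000 normalized reads, and by quintiles of mean level for all genes tested (x axes). In the first panel the red bars go from 7.68% to 24.9% and the blue bars from 20.5% to 9.16%.

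By chromosome, the median log2 difference of protein-coding genes ran from -0.11 on chromosome 22 to 0.08 on chromosome 4. On chromosome 22, with 272 genes tested, 4.41% were higher with DMSO and 25.0% with the vector, and on chromosome 4, with 427 genes, the shares were 23% and 8.2%. Chromosomes 16, 17, 19 and 20 leaned towards the vector as well, at -0.06 to -0.08, and chromosomes 2, 5 and 13 towards DMSO, at 0.05 to 0.06. Each of these medians was smaller than those of the hypoxia, interferon and sterol lists.

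The few liver genes that were expressed differed by small amounts. The counts that follow stand against 13.9% of all genes called higher with DMSO and 14.7% with the vector. CPS1 was higher with the vector (17087, 17215 and 15957 against 19350, 19928 and 19736 normalized reads, log2 difference -0.23, limma adjusted p = 0.00569, and 0.0501 without vector replicate 2), as was ASS1, another urea cycle enzyme (-0.31). The liver transcription factors CEBPA (-0.33), CEBPB (-0.25, limma adjusted p up to 0.0684 without DMSO replicate 1 or vector replicate 3) and CEBPD (-0.38) were among the 4 of 17 tested that were higher with the vector, and ONECUT2 (0.50) was the 1 higher with DMSO. HNF4A did not differ beyond its spread (0.02, limma adjusted p = 0.899). Among keratins, which mark epithelial cells, 4 of 9 were higher with the vector, led by KRT17 (-0.55), and 1 with DMSO, KRT10 (0.39). In the most abundant quintile, where the median level of the keratins lies, 34.4% were higher with the vector and 8.86% with DMSO. Of 5 bile duct markers tested none was higher with DMSO and 1 with the vector, MUC1 (-0.27, limma adjusted p = 0.0207, and up to 0.106 when DMSO replicate 1 or 2 or vector replicate 1 or 3 was left out), with a median log2 difference of -0.12. The most abundant of them, KRT7, stood at -0.04 and was not called.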

How the data were processed

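RNA-seq of 6 control libraries, 3 labelled DMSO and 3 labelled empty vector, was used; the other RNA libraries served only for values set beside them, and the open chromatin files were not used here. The deposited tables give a normalized signal per gene, read counts that the authors divided by a size factor for each library, per the file headers and the values, and the 2 tables were normalized separately. The submitters' processing notes name HISAT2 1.1.0, featureCounts 1.6.1 and DESeq2 for the series; how reads with several matches were counted, and whether strand was used, is not given in the sources used here. In each library the values were whole multiples of a smallest step (100% within 0.001 of a read), which gave back whole reads, 18116136 to 23324749 per library.

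The 6 columns were joined by gene name and rescaled together by median-of-ratios factors. Genes with a mean of at least 10 were kept, log2(value + 1) was fitted with limma 3.58.1 in R 4.3.3 (trend and robust variance, two-sided), and p-values were adjusted by Benjamini-Hochberg over all 14000 genes at 0.05. Differences on this scale understate the change of low genes. Alternatives were TMM factors, the deposited scales, no minimum, a minimum of 100, pseudocounts of 0.5 and 5, edgeR 4.0.16 and DESeq2 1.42.0 on the recovered reads, all 12 RNA libraries in a single fit, the replicate number as a block, and each library left out in turn. The limma step was tested on simulated data.

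Named genes were the 4 of the study's title, the 10 largest called differences each way with a mean of at least 100 and separate groups, up to 4 called members per gene list in its main direction and up to 2 in the other, the 10 most abundant genes and the top member by level of every cell type list; other names were added after their values were seen. Some of these genes are not reported here. No gene had 0 reads in a whole group beside a mean of at least 30 in the other. The groups, gene lists and this rule were chosen with earlier results of these data known. Gene positions and promoters are those of RefSeq GRCh38.p14, matched by symbol.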

Additional observations from a re-analysis of the deposited data

How the results depend on the processing

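Of the 255 named genes that were called, 182 kept their call under all 16 alternatives that tested them, and none changed sign. The genes called numbered 1951 higher with DMSO and 2053 with the vector; on the deposited scales, without the joint rescaling, 1142 genes were higher with the vector. On the recovered reads, edgeR's quasi-likelihood test called 2068 and 1794 genes and DESeq2 1757 and 1739. Leaving out single libraries gave 1284 to 2534 genes higher with DMSO and 1140 to 2944 higher with the vector. Differences of at least 1 on the log2 scale, 174 and 27 genes, became 301 and 48 with no minimum level, 44 and 3 with a minimum mean of 100, and 107 and 17 with a pseudocount of 5; leaving out single libraries gave 117 to 234 and 19 to 42. In these cases the cause was not tested, apart from the minimum and the pseudocount, which by construction set how many low genes are tested and how far low values can differ. Replicate numbers, which are those of the table columns, did not pair the libraries: deviations of same-numbered libraries correlated at 0.02, -0.02 and 0.08 across genes, and DMSO replicate 2 correlated best with vector replicate 1. With the number as a replicate block 2445 and 2730 genes were called, 189 and 38 of them by at least 1, and CA9 and NDRG1 were not called (limma adjusted p = 0.0515 and 0.0803). With 3 libraries a group, and 10 to 54.8 normalized reads in the lowest quintile of genes, 9.14% of that quintile was called against 43.2% of the most abundant quintile.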

Other observations

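Several groups not described so far were also measured in the 2 controls, where 13.9% of all genes tested were higher with DMSO and 14.7% with the vector. Among genes of metal handling, 4 of 21 were higher with DMSO, namely the zinc importer SLC39A10 (log2 difference 0.51), the copper pump ATP7A (0.50), the copper chaperone CCS (0.40) and the zinc exporter SLC30A1 (0.31), and 3 with the vector, among them the ferritin chains FTL (-0.42) and FTH1 (-0.28). SLC30A1 had 2478, 2540 and 2243 normalized reads with DMSO and 2137, 1935 and 1781 with the vector (limma adjusted p = 0.00257), so its groups did not overlap. The Notch list had 5 of 15 members higher with the vector, among them NOTCH3 (-0.25), HES4 (-0.42) and NRARP (-0.38), and 2 higher with DMSO, LFNG (0.62) and HEY1 (0.63, with a limma adjusted p of up to 0.0687 without DMSO replicate 2 or vector replicate 1). Fatty acid oxidation had 5 of 20 higher with the vector, among them CPT1A (-0.40), HADHA (-0.26) and HADHB (-0.29), and 3 with DMSO, among them ACADM (0.41). Of 17 inflammatory genes 3 were higher with DMSO (17.6%), BIRC3 (0.58), PTGS2 (0.36) and IL11 (0.24), the last 2 with a limma adjusted p of 0.0798 and 0.0972 at the highest when single libraries were left out, and 2 with the vector (11.8%), ICAM1 (-0.32) and NFKBIA (-0.33), shares near those of all genes.

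Of 17 KLF and SP factors 5 were higher with DMSO, led by KLF9 with 45.2, 50.1 and 45.4 normalized reads against 33.4, 21.9 and 19 (log2 difference 0.93, limma adjusted p = 0.00948), and 4 with the vector, led by KLF13 (-0.42). The serum and stress kinase SGK1 had 697, 706 and 734 normalized reads with DMSO and 1034, 1150 and 1095 with the vector (-0.62, limma adjusted p = 1.12e-05). The arrestin-domain gene ARRDC3, chosen after its values were seen, had 750, 908 and 676 against 344, 338 and 332 (1.19, limma adjusted p = 1.44e-07), while its relative TXNIP did not pass the test (0.03, limma adjusted p = 0.764).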
